A study of Mus musculus with 12 samples.

Results

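The libraries compared were those of P18 retinas from mice that had been through oxygen-induced retinopathy under IC100 (O2-IC100, animals 9, 11 and 12) and from mice kept in room air with placebo (RA-PBS, animals 1 to 4). They were chosen by their labels, and they make up 7 of the 12 retinas sequenced. All mice were C57BL/6J wildtype. O2-IC100 mice were moved at P7 into 75% O2 with nursing dams that were rotated between the chamber and room air, and were back in room air at P12, which the series text gives as the day after the last oxygen day. IC100, a humanized antibody to ASC, the adaptor of inflammasomes, was injected intraperitoneally at 10 µg/g on P12, P14 and P16, and RA-PBS mice received PBS as placebo. O2-PBS mice (animals 5 to 8) had the same oxygen exposure with PBS and are used for comparison only. The question is which RNA differences from room air were still measured after the antibody. Both oxygen and antibody differ between O2-IC100 and RA-PBS, and their parts in a difference cannot be told apart in this comparison.

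In oxygen-induced retinopathy, high oxygen stops the growing retinal capillaries and removes part of them, and the return to room air leaves the inner retina hypoxic. Hypoxic neurons and Müller glia then make HIF-driven vascular growth factors, endothelial tip cells sprout into tufts, and microglia gather around the tufts. ASC joins inflammasome sensors to caspase-1 in microglia and macrophages, and antibodies to it are meant to limit that step.

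The libraries did not hold retina alone, and 2 of them stood apart in genes of other tissues. Lens genes (24, mostly crystallins) took 61.0% of the counts of O2-IC100 animal 10 (95% Wilson interval 60.99 to 61.03%, counting error only), which is why it was left out of the comparison. Their share was 1.30, 4.69 and 1.48% in RA-PBS animals 2, 3 and 4, 0.00396% in RA-PBS animal 1 and 0.00490 to 0.00974% in the 3 O2-IC100 retinas. The share was thus high in 3 of the 4 RA-PBS retinas and low in RA-PBS animal 1 and the 3 O2-IC100 retinas. Oligodendrocyte genes, which the retina itself lacks and the optic nerve holds, summed to 6295 CPM, the usual scaling of counts to library size, in RA-PBS animal 4 and to 64.5 to 72.9 in the other 6. Y-linked genes summed to 6.01 CPM in that animal and to between 238.8 and 371.9 in those 6. Total counts were 16457897 to 19146287 in these 7 libraries, and rod genes took 5.02 to 5.96% of them. On their main axis of variation (first principal component, 41.3%), RA-PBS animal 1 lay apart at -80.2. The others lay at -6.7 to 44.5, with animal 4 at 17.8. Animal 1 also had the highest mitochondrial share, at 3.98% of counts. Because of its genes of the optic nerve, results are given with and without animal 4, a choice made after these were seen. Counts without RA-PBS animal 1 are given at the end. In O2-PBS, Y-linked genes summed to 8.86, 10.96 and 9.39 CPM in animals 5, 6 and 7 and to 259.2 in animal 8. O2-IC100 animals 9, 11 and 12 had 320.3 to 371.9, and the Y-linked median log2 fold change against O2-PBS was 2.17. Differences of O2-IC100 from O2-PBS come with this imbalance, and its part in them was not tested.

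**Figure D1:**
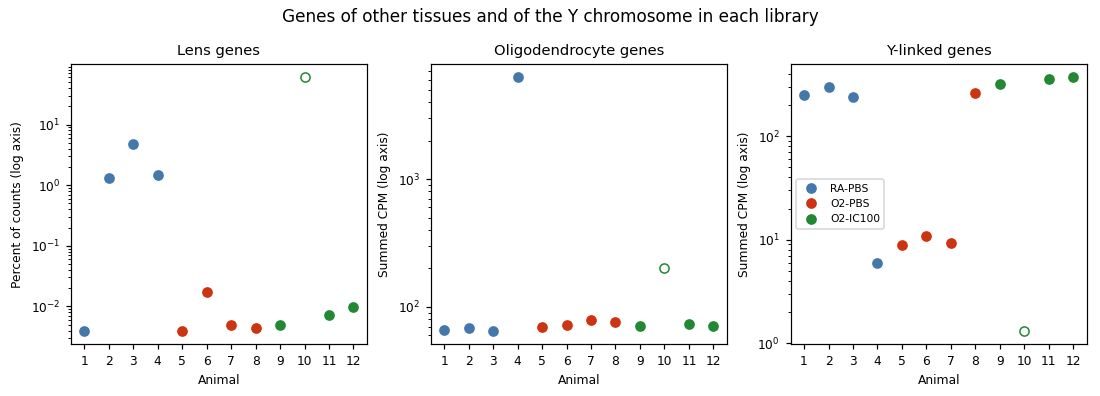
Lens genes in percent of counts and oligodendrocyte and Y-linked genes in summed CPM, all on log axes, in each of the 12 libraries by animal number, with animal 10 as an open point. Lens genes are high in RA-PBS animals 2, 3 and 4 and take 61.0% of animal 10, and oligodendrocyte genes reach 6295 CPM in RA-PBS animal 4.

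Of 16309 genes tested in the 7 libraries, 18 passed the thresholds (fold change of at least 1.5, p under 0.05 and Benjamini-Hochberg adjusted p under 0.1 in edgeR's quasi-likelihood test), which is 0.110% of those tested. Higher in O2-IC100 were 14 genes (0.0858%), among them the tip cell gene Esm1, the hypoxia-induced genes Ndufa4l2, Adm and Vegfa and the macrophage gene Mpeg1, and lower were the 4 genes Etnppl, Mypn, Gprc5b and Kif5a (0.0245%). In each of the 18 the groups did not overlap, which held for 5.86% of all genes on the higher side and 4.90% on the lower side. At an unadjusted p under 0.05 there were 1745 genes, and the median log2 fold change of all genes was 0.005. Without RA-PBS animal 4 the count rose to 223 higher (1.38%) and 328 lower (2.03%) of 16129 genes, 3.42% in all, with the 18 among them. DESeq2 on the 7 libraries called 150 genes higher (0.920%) and 181 lower (1.11%), also with all 18. When any 1 of the 3 O2-IC100 libraries was left out, edgeR called 0 genes, with 377 to 513 higher and 527 to 632 lower at an unadjusted p under 0.05, while DESeq2 called 37 to 73 higher and 56 to 99 lower, again with all 18. The log2 fold changes of the 18 genes in those edgeR fits were 0.844 to 1.09 times those of the 7 libraries.

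**Figure D2:**
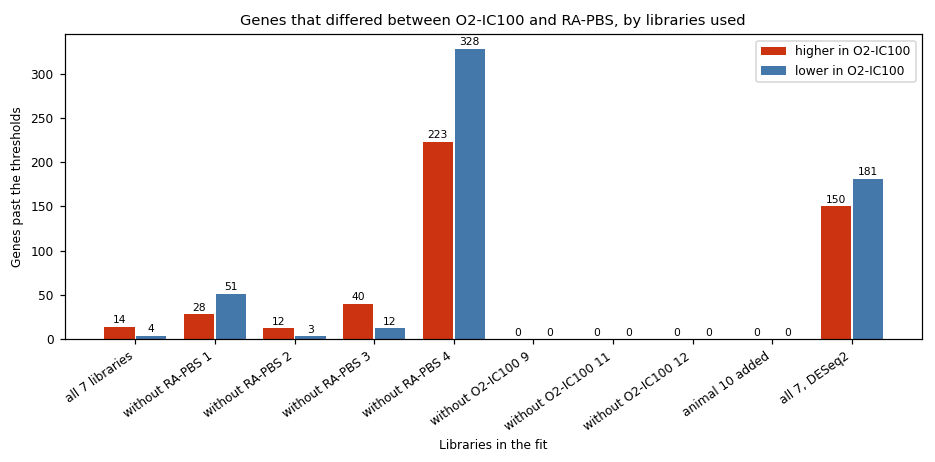
Number of genes higher (red) and lower (blue) in O2-IC100 than in RA-PBS past the thresholds, for all 7 libraries, with each library left out in turn, with O2-IC100 animal 10 added, and by DESeq2. The edgeR counts run from 0 and 0 without any 1 O2-IC100 library to 223 and 328 without RA-PBS animal 4.

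The largest difference was in Esm1, which encodes the proteoglycan endocan and marks endothelial tip cells. It measured 0, 0.108, 0.306 and 0.173 CPM in the RA-PBS retinas and 2.66, 4.80 and 3.89 CPM in the O2-IC100 retinas. Every O2-IC100 retina was above every RA-PBS retina, although the RA-PBS values rest on few reads. The log2 fold change was 4.62 ± 0.594 (SE, adjusted p = 0.0352 by edgeR's quasi-likelihood test). The O2-PBS retinas measured 12.2, 6.16, 9.40 and 10.8 CPM, all above the O2-IC100 retinas, and O2-IC100 was lower than O2-PBS by a log2 fold change of -1.35 ± 0.248 (adjusted p = 0.00338). Esm1 thus lay between the room air and the placebo-treated retinas in every O2-IC100 animal.

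Apln encodes apelin, a peptide that tip cells secrete to neighbouring endothelial cells. It stood at 7.53, 4.84, 10.3 and 10.2 CPM in RA-PBS and at 29.1, 41.5 and 37.2 CPM in O2-IC100. All O2-IC100 values exceeded those of RA-PBS, by a log2 fold change of 2.13 ± 0.236 (adjusted p = 0.0352 by edgeR). O2-PBS retinas measured 112.4, 47.6, 67.9 and 91.1 CPM, and the direct comparison of O2-IC100 with O2-PBS gave -1.16 ± 0.343 (adjusted p = 0.0650).

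Of the 12 tip cell and tuft genes, 2 were higher past the thresholds in the 7 libraries (Esm1 and Apln) and 0 lower, against 0.0858% of all genes called higher. The list's median log2 fold change was 0.71 (all genes 0.005), and all 12 were positive, from 0.27 to 4.62. Without RA-PBS animal 4, 5 were called higher (1.38% of all genes), adding Angpt2, Cxcr4 and Kcne3. Angpt2, the angiopoietin that loosens endothelial contacts, measured 4.36 to 7.86 CPM in RA-PBS and 9.77 to 13.1 CPM in O2-IC100, with no overlap (log2 fold change 0.88 ± 0.216, adjusted p = 0.208 by edgeR, and 0.98 with adjusted p = 0.0517 without animal 4). Cxcr4, a chemokine receptor of sprouting tips, measured 1.67 to 3.05 CPM in RA-PBS and 5.03 to 6.62 CPM in O2-IC100, without overlap. Its adjusted p was 0.190 in the 7 libraries and 0.0588 without animal 4. For O2-PBS against RA-PBS, which shares the RA-PBS libraries, the median of the list was 1.79 and 12 of 12 were called higher (3.53% of all genes, and 5.36% in either direction), and for O2-IC100 against O2-PBS, which shares the O2-IC100 libraries, it was -1.02 with 9 called lower (3.82% of all genes, and 4.83% in either direction).

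**Figure D3:**
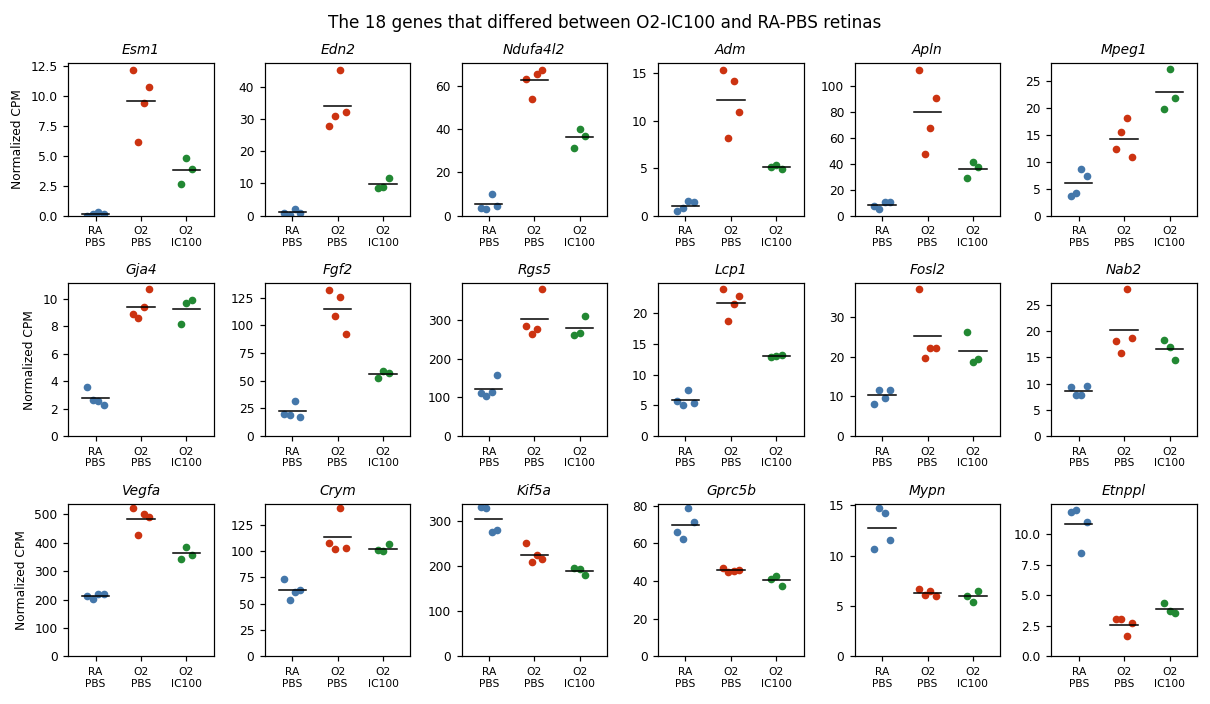
Normalized CPM of the 18 called genes in each RA-PBS (blue), O2-PBS (red) and O2-IC100 (green) retina, with the group mean as a line and animal 10 left out. In each panel the O2-IC100 points lie wholly above or, in the last 4 panels, wholly below the RA-PBS points, and Esm1, Edn2 and Ndufa4l2 lie between RA-PBS and O2-PBS.

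Of the 15 tested angiogenic ligands, 5 were higher than in room air (Vegfa, Apln, Edn2, Adm and Fgf2) and 0 lower, against 0.0858% of all genes called higher, and 11 were positive with a list median of 0.54. The count was 6 without RA-PBS animal 4 (1.38% of all genes), with Angpt2. Edn2 encodes endothelin-2, a vasoactive peptide that stressed photoreceptors make. It was at 0.685, 0.323, 2.14 and 0.867 CPM in RA-PBS and at 8.59, 8.86 and 11.6 CPM in O2-IC100, a log2 fold change of 3.27 ± 0.459 (adjusted p = 0.0387 by edgeR). The groups did not overlap, and the lowest O2-IC100 value was far from the highest RA-PBS value. O2-PBS retinas measured 27.7 to 45.1 CPM, and O2-IC100 was lower than O2-PBS by a log2 fold change of -1.82 ± 0.180 (adjusted p = 0.000319).

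Adm encodes adrenomedullin, a vasodilator peptide induced by hypoxia. It measured 0.498, 0.807, 1.53 and 1.39 CPM in RA-PBS and 5.15, 5.34 and 4.93 CPM in O2-IC100. The 3 O2-IC100 values were close together and all above RA-PBS, with a log2 fold change of 2.27 ± 0.359 (adjusted p = 0.0870 by edgeR). O2-PBS stood at 8.12 to 15.3 CPM.

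Vegfa, the main endothelial growth factor of the hypoxic retina, had closely spaced room air values, at 212.8, 201.8, 219.3 and 218.5 CPM. In O2-IC100 it measured 342.1, 386.4 and 358.1 CPM, all above room air, with a log2 fold change of 0.76 ± 0.099 (adjusted p = 0.0352 by edgeR). O2-PBS retinas measured 426.2 to 520.9 CPM, all above O2-IC100, and O2-IC100 against O2-PBS gave -0.43 ± 0.072 (adjusted p = 0.00122), a change below the fold limit of 1.5.

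Fgf2, a growth factor of endothelium and glia, measured 20.1, 19.3, 31.6 and 17.6 CPM in RA-PBS and 51.9, 58.8 and 57.0 CPM in O2-IC100, with a log2 fold change of 1.33 ± 0.186 (adjusted p = 0.0387 by edgeR). O2-PBS stood at 91.7 to 132.0 CPM, above every O2-IC100 retina (log2 fold change -1.04 ± 0.121 for O2-IC100 against O2-PBS, adjusted p = 0.000756).

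Ndufa4l2, a mitochondrial protein that HIF-1 induces, measured 3.55, 2.91, 9.79 and 4.39 CPM in RA-PBS and 31.3, 40.1 and 36.7 CPM in O2-IC100. All O2-IC100 retinas were above all RA-PBS retinas, of which animal 3 was the highest. The log2 fold change was 2.80 ± 0.349 (adjusted p = 0.0352 by edgeR). O2-PBS measured 53.7 to 67.1 CPM, and O2-IC100 was lower than that by -0.80 ± 0.094 (adjusted p = 0.000208).

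Of 22 HIF targets, 3 were called higher (Ndufa4l2, Adm and Vegfa) and 0 lower, against 0.0858% of all genes called higher. The list median was 0.16. Egln3, the oxygen-sensing hydroxylase that HIF induces, measured 3.93 to 6.00 CPM in RA-PBS and 8.17 to 9.87 CPM in O2-IC100, without overlap, with an adjusted p of 0.176 in the 7 libraries and 0.0542 without RA-PBS animal 4 in edgeR. Of the 20 glycolysis genes, 0 were called by edgeR or by DESeq2 in the 7 libraries, and their median was -0.05. With RA-PBS animal 4 left out, 1 was called lower (2.03% of all genes), Hk2, a hexokinase of glycolysis. It measured 262.1, 323.7, 270.0 and 140.8 CPM in RA-PBS and 167.9, 177.3 and 129.5 CPM in O2-IC100, where animal 4 lay within the O2-IC100 range (-0.66 ± 0.243, adjusted p = 0.368 by edgeR, and -0.86, adjusted p = 0.0274, without it).

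The 250 bases before the annotated start of Esm1, Lcp1 and Vegfa are shown, read from RefSeq on GRCm38.p6, as those of a tip cell gene, a leukocyte gene and a HIF target among the called genes. Capitals mark the HIF core letters ACGTG or their reverse complement CACGT.
Esm1, chr13:113209409-113209658, plus strand: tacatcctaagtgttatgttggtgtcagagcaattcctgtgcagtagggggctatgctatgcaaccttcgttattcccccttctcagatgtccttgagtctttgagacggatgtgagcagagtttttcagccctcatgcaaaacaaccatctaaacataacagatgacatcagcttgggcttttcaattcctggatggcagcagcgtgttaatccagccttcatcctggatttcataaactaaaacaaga
Lcp1, chr14:75130873-75131122, plus strand: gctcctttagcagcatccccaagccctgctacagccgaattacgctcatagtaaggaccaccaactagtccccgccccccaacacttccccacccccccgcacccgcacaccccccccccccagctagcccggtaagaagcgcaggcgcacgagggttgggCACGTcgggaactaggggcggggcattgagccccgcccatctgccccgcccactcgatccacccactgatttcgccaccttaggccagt
Vegfa, chr17:46032378-46032627, minus strand: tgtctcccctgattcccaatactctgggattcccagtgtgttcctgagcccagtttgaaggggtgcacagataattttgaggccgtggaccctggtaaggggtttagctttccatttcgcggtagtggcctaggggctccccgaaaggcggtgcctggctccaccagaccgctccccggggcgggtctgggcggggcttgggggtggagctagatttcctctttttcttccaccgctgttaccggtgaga
The core was searched on both strands in 300-base windows (250 before and 50 after each start), where 19.6% of all 32851 windows hold it. Of the 18 called genes, 15 had a window, and 2 of these, Lcp1 and Vegfa, held the letters, Vegfa only in the window of a second start inside the gene, which is not shown. The AP-1 letters TGACTCA or TGAGTCA are in 5.20% of all windows and in 0 of the 18 windows of called genes. These matches describe letters and do not locate a binding site.

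Of the vessel wall genes, Gja4 and Rgs5 passed the test. Gja4 encodes connexin 37, a gap junction protein of arterial endothelium. It measured 3.55, 2.64, 2.57 and 2.25 CPM in RA-PBS and 8.17, 9.66 and 9.91 CPM in O2-IC100, with a log2 fold change of 1.74 ± 0.218 (adjusted p = 0.0352 by edgeR). O2-PBS stood at 8.58 to 10.7 CPM, overlapping O2-IC100, and the difference between those was -0.03 ± 0.131 (adjusted p = 0.884).

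Rgs5, a regulator of G protein signalling that marks pericytes, measured 112.1, 102.7, 114.8 and 157.1 CPM in RA-PBS and 261.4, 265.6 and 310.2 CPM in O2-IC100. The groups were separate, with a log2 fold change of 1.19 ± 0.145 (adjusted p = 0.0352 by edgeR). O2-PBS retinas overlapped O2-IC100 at 263.2 to 381.1 CPM, with a difference of -0.12 ± 0.128 (adjusted p = 0.522). Rgs5 was the 1 called of 11 pericyte and mural genes (0.0858% of all genes called higher), and the list median was 0.33. For O2-IC100 against O2-PBS, 9 of these 11 were called lower (3.82% of all genes), with a median of -0.95, and Rgs5 was not among them.

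Of 16 endothelial genes, 0 were called in the 7 libraries by edgeR, where the median was 0.35. Without RA-PBS animal 4, 6 were called higher (1.38% of all genes), and DESeq2 on the 7 libraries called 6 higher (0.920%). Cldn5, a tight junction protein of the blood-retina barrier, measured 29.8, 23.03, 29.5 and 40.9 CPM in RA-PBS and 50.2, 57.6 and 54.8 CPM in O2-IC100. It was separate between the groups, with an adjusted p of 0.158 in the 7 libraries and 0.0246 without animal 4, which had the highest room air value. Against O2-PBS it differed by 0.01 ± 0.166. Pecam1, an endothelial adhesion molecule, measured 19.5 to 25.2 CPM in RA-PBS, 32.5 to 38.9 CPM in O2-IC100 and 44.97 to 56.6 CPM in O2-PBS, with no overlap among the 3 groups (O2-IC100 against RA-PBS 0.67 ± 0.126, adjusted p = 0.137 by edgeR). In bulk RNA, more cells of a type and more RNA per cell cannot be told apart.

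Of 27 matrix and basement membrane genes tested, 0 were called in the 7 libraries by edgeR. DESeq2 called 2 higher (0.920% of all genes) and 1 lower (1.11%). The list median was 0.01 with 14 positive. Without RA-PBS animal 4 the median was -0.14, with 1 called higher (Mmp14, 1.38% of all genes) and 1 lower (Adamts1, 2.03%). In O2-PBS against RA-PBS 14 of 26 were called higher (3.53% of all genes) with a median of 0.92, and in O2-IC100 against O2-PBS 17 of 27 were called lower (3.82%) with a median of -1.04. The summed level of the list was 1128 to 1986 CPM in RA-PBS, 1331 to 1489 CPM in O2-IC100 and 2219 to 3284 CPM in O2-PBS. RA-PBS animal 3, which had the most lens RNA, had the highest room air sum. Mmp14, a membrane-bound matrix protease, was the member with the smallest p. It measured 15.2 to 19.7 CPM in RA-PBS, 25.5 to 27.1 CPM in O2-IC100 and 27.5 to 29.8 CPM in O2-PBS (O2-IC100 against RA-PBS 0.63 ± 0.126, adjusted p = 0.157).

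**Figure D4:**
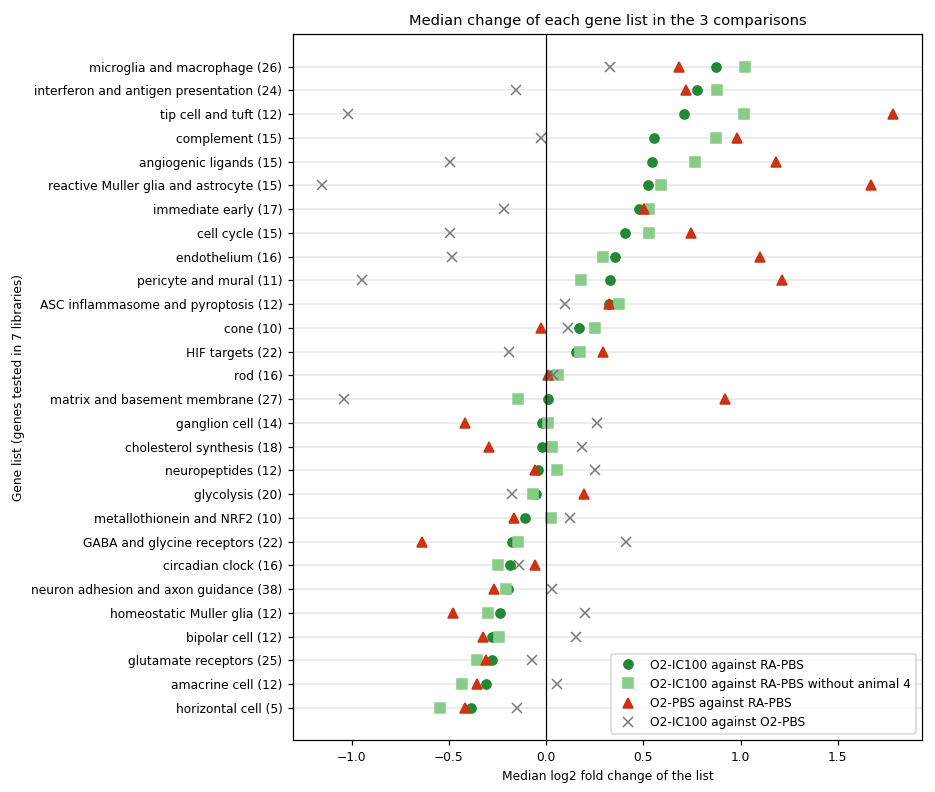
Median log2 fold change of 28 gene lists, with the number of genes tested in brackets, in O2-IC100 against RA-PBS with and without RA-PBS animal 4 (green circles and squares), O2-PBS against RA-PBS (red triangles) and O2-IC100 against O2-PBS (grey crosses). The microglia and interferon lists lie highest for O2-IC100 against RA-PBS in the 7 libraries, at 0.88 and 0.78 (without animal 4 the microglia and tip cell lists do, both at 1.02), and the matrix list lies at 0.01 against 0.92 for O2-PBS.

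In Mpeg1 the O2-IC100 retinas were the highest of the 3 groups. Mpeg1, a pore-forming protein of macrophages and microglia, measured 3.67, 4.14, 8.57 and 7.39 CPM in RA-PBS and 19.8, 27.1 and 21.8 CPM in O2-IC100. Every O2-IC100 value was above every RA-PBS value, by a log2 fold change of 1.94 ± 0.274 (adjusted p = 0.0387 by edgeR). O2-PBS measured 12.3, 15.5, 18.1 and 10.8 CPM, all below O2-IC100, and O2-IC100 was higher than O2-PBS by 0.68 ± 0.169 (adjusted p = 0.0164).

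Of the 26 microglia and macrophage genes, 23 were positive against room air and the median was 0.88. In the 7 libraries 1 was called higher (0.0858% of all genes). Without RA-PBS animal 4, 14 were called higher (1.38% of all genes) with a median of 1.02. With the length and GC correction in that fit 13 were higher and 1 lower, against 195 and 190 of all 15960 genes. DESeq2 called 12 higher (0.920% of all genes) and 1 lower (1.11%) in the 7 libraries. The summed level was 133.7, 110.6, 165.4 and 207.4 CPM in RA-PBS, 247.4, 305.3 and 291.0 CPM in O2-IC100 and 196.5 to 251.8 CPM in O2-PBS. Animal 4 had the highest sum of the room air retinas, and O2-IC100 and O2-PBS overlapped.

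C1qa, C1qb and C1qc encode the chains of complement C1q, which microglia secrete. C1qa measured 5.11, 3.01, 5.45 and 10.46 CPM in RA-PBS and 15.3, 17.5 and 17.0 CPM in O2-IC100, where the last RA-PBS value is animal 4. Its log2 fold change was 1.46 ± 0.320 (adjusted p = 0.177 by edgeR), and 1.87 ± 0.224 (adjusted p = 0.0220) without that animal. C1qb gave 1.69 (adjusted p = 0.158) with it and 2.13 (adjusted p = 0.0220) without it. Tyrobp, the signalling adaptor of microglial receptors, measured 0.374, 0.646, 1.04 and 3.93 CPM in RA-PBS and 3.61, 5.44 and 5.31 CPM in O2-IC100, so that animal 4 overlapped the O2-IC100 range. In the direct comparison with O2-PBS, 6 microglia genes were called higher (1.01% of all genes) and 0 lower, namely Mpeg1, P2ry12, C1qc, Tyrobp, Lyz2 and Fcgr3, at log2 fold changes from 0.68 to 1.19. P2ry12 is a receptor of resting microglia, and the others are genes of microglia and macrophages more broadly.

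Lcp1, the actin-bundling protein of leukocytes, measured 5.73, 5.06, 7.53 and 5.37 CPM in RA-PBS and 12.9, 13.0 and 13.3 CPM in O2-IC100. The O2-IC100 values were almost equal and above room air, with a log2 fold change of 1.14 ± 0.178 (adjusted p = 0.0870 by edgeR). Unlike Mpeg1, it was lower than in O2-PBS (18.7 to 23.9 CPM), by -0.74 ± 0.102 (adjusted p = 0.000369). Of 10 lymphocyte and neutrophil genes, 2 were tested (median 0.07), and 0 were called by edgeR or DESeq2.

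**Figure D5:**
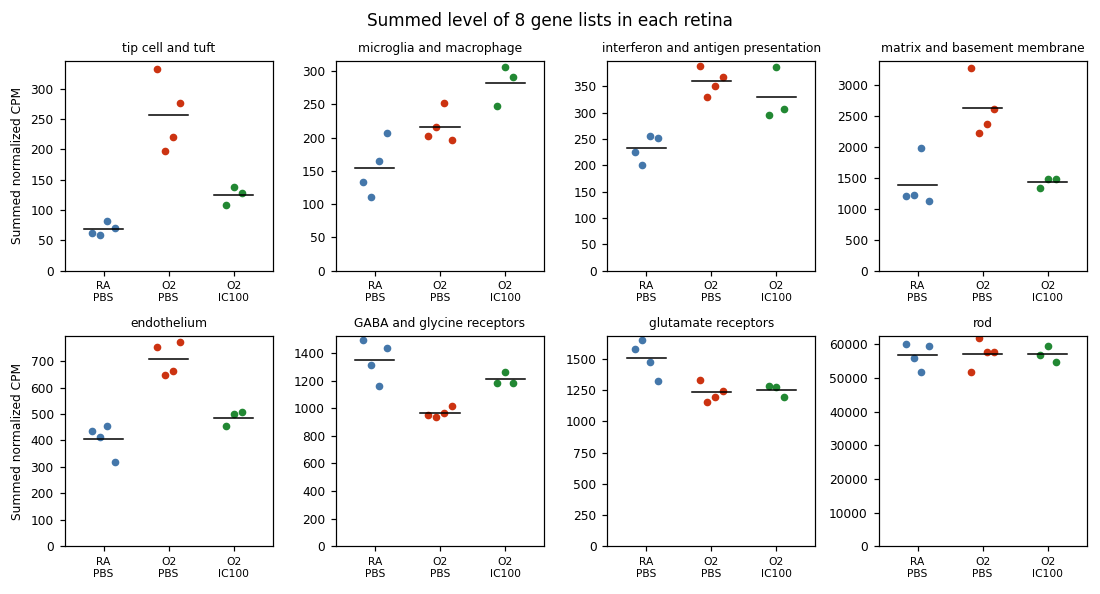
Summed normalized CPM of 8 gene lists in each RA-PBS (blue), O2-PBS (red) and O2-IC100 (green) retina, with the group mean as a line and animal 10 left out. Microglia sums are 247.4 to 305.3 CPM in O2-IC100 against 110.6 to 207.4 CPM in RA-PBS, while rod sums overlap among the 3 groups.

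Interferon and antigen presentation genes were positive in 23 of 24 cases against room air, with a median of 0.78, and 0 were called in the 7 libraries by edgeR and 6 by DESeq2. Without RA-PBS animal 4, 7 were called higher, namely Irf7, Ifi27, Oasl2, Ifitm3, B2m, H2-K1 and H2-Ab1, against 1.38% of all genes (DESeq2 0.920% in the 7 libraries). With the length and GC correction 6 were higher, against 195 of all 15960 genes. Irf7, the transcription factor that amplifies interferon responses, measured 4.63 to 9.79 CPM in RA-PBS, 12.2 to 17.0 CPM in O2-IC100 and 17.4 to 24.5 CPM in O2-PBS. The 3 groups did not overlap in Irf7, and its adjusted p against room air was 0.203 in the 7 libraries and 0.0741 without animal 4. For O2-IC100 against O2-PBS the list median was -0.15 with 0 called by edgeR.

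RNA of several members of the ASC pathway was scarce. Of 20 genes of the inflammasome and pyroptosis list 12 were tested, with a median of 0.33, and 11 were positive. In the 7 libraries 0 were called by edgeR or DESeq2. The list summed to 118.3 to 158.9 CPM in RA-PBS, where animal 4 was the highest, and to 151 to 169 CPM in O2-IC100. Leaving out RA-PBS animal 4 gave 1 called higher (Ninj1, against 1.38% of all genes). Ninj1, which ruptures the plasma membrane late in pyroptosis, measured 6.23, 4.41, 6.98 and 15.1 CPM in RA-PBS and 10.1, 11.1 and 13.6 CPM in O2-IC100. Animal 4 was the highest of the 7, so the groups overlapped with it and were separate without it (0.50 ± 0.348, adjusted p = 0.658 by edgeR, and 0.97, adjusted p = 0.0491, without it). Pycard, which encodes ASC, measured 1.62, 1.94, 2.27 and 3.06 CPM in RA-PBS and 2.01, 1.87 and 4.65 CPM in O2-IC100, which overlap (0.35 ± 0.389, adjusted p = 0.791). Gsdmd, the pore-forming gasdermin of pyroptosis, gave 1.19 ± 0.729 (adjusted p = 0.608) at 0 to 1.33 CPM in RA-PBS and 1.24 to 2.19 CPM in O2-IC100. Il18, the cytokine that caspase-1 matures, gave 0.12 ± 0.230 (adjusted p = 0.893). Il1b, Il6, Nlrp3 and Tnf had too few counts to be tested, with at most 0.427 CPM in any of the 7 libraries, and Il6 had 0 counts in all 7, where 3 counts are 1.57e-05 to 1.82e-05% of a library. Differences in these genes were not detectable at this depth.

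Regulators of transcription were called as well. Fosl2, a subunit of the AP-1 factor, measured 8.22, 11.6, 9.61 and 11.6 CPM in RA-PBS and 26.2, 18.8 and 19.4 CPM in O2-IC100, without overlap (1.06 ± 0.175, adjusted p = 0.0930 by edgeR). Nab2, which holds back EGR transcription factors, measured 7.84 to 9.59 CPM in RA-PBS and 14.6 to 18.4 CPM in O2-IC100 (0.93 ± 0.151, adjusted p = 0.0913). Neither passed the test against O2-PBS (Fosl2 -0.25 ± 0.257 and Nab2 -0.29 ± 0.182). Of 17 immediate early genes, 15 were positive, with a median of 0.48. In the 7 libraries 1 was called higher (0.0858% of all genes). Without RA-PBS animal 4, 4 were called higher (1.38%), namely Fos, Fosb, Fosl2 and Junb.

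Crym encodes mu-crystallin, which binds thyroid hormone. It measured 73.4, 53.7, 60.7 and 62.9 CPM in RA-PBS and 100.5, 99.6 and 106.8 CPM in O2-IC100, separate from room air (0.70 ± 0.114, adjusted p = 0.0913 by edgeR). It is not on the lens list. The lens-rich library of animal 10, where rod genes took only 0.461% of counts, held 12.8 CPM, a value that the scaling between libraries raised. A part of lens RNA in the Crym difference was not tested. O2-PBS measured 102.0 to 140.5 CPM, overlapping O2-IC100.

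The 4 genes lower than in room air follow. Etnppl, an enzyme of phospholipid breakdown found in astroglia, measured 11.8, 12.0, 8.45 and 11.0 CPM in RA-PBS and 4.32, 3.74 and 3.50 CPM in O2-IC100. All O2-IC100 values were below all RA-PBS values, by a log2 fold change of -1.49 ± 0.198 (adjusted p = 0.0352 by edgeR). O2-PBS measured 1.63 to 3.05 CPM, all below O2-IC100, and the direct difference was 0.55 ± 0.232 (adjusted p = 0.0944), under the fold limit. Etnppl was the 1 called of 12 homeostatic Müller glia genes (0.0245% of all genes called lower). Another of that list, Kcnj10, the potassium channel of Müller endfeet, measured 54.6 to 80.3 CPM in RA-PBS and 44.7 to 50.1 CPM in O2-IC100 (adjusted p = 0.245 in the 7 libraries and 0.0378 without animal 4). With the length and GC correction in that last fit, Kcnj10 gave -0.43 (adjusted p = 0.134 by edgeR) and was not called.

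Kif5a, a kinesin motor of neuronal axons, measured 329.6, 328.5, 274.9 and 280.1 CPM in RA-PBS and 194.3, 192.3 and 179.6 CPM in O2-IC100. Its log2 fold change was -0.69 ± 0.114 (adjusted p = 0.0930 by edgeR), with no overlap. With the length and GC correction, without RA-PBS animal 4, it was -0.53 (adjusted p = 0.0537), under the fold limit. O2-PBS lay at 209.5 to 249.8 CPM, above O2-IC100, and the direct difference of -0.26 ± 0.067 (adjusted p = 0.0120) was below the fold limit. Nefh, the heavy neurofilament of large axons, measured 124.0 to 178.0 CPM in RA-PBS and 86.3 to 92.8 CPM in O2-IC100 (adjusted p = 0.106, and 0.0220 without animal 4).

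Gprc5b, an orphan G protein-coupled receptor, and Mypn, the sarcomere protein myopalladin, were called lower in the 7 libraries. Gprc5b measured 66.3, 62.4, 79.0 and 71.4 CPM in RA-PBS and 41.3, 42.5 and 37.6 CPM in O2-IC100 (-0.79 ± 0.110, adjusted p = 0.0387 by edgeR). Mypn measured 10.7, 14.7, 14.2 and 11.6 CPM in RA-PBS and 6.04, 5.44 and 6.46 CPM in O2-IC100 (-1.10 ± 0.179, adjusted p = 0.0913). In the lens-rich library of animal 10 they stood at 1067 and 201.9 CPM, values that the scaling between libraries raised. RA-PBS animal 1, with a lens share of 0.00396%, had 66.3 and 10.7 CPM, above every O2-IC100 retina. A part of lens RNA in the differences of Gprc5b and Mypn was not tested.

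Receptors of neurons were mostly negative and mostly uncalled. Of 25 glutamate receptor genes, 22 were negative with a median of -0.28, and 0 were called in the 7 libraries by edgeR. DESeq2 called 2 lower (1.11% of all genes), and edgeR without RA-PBS animal 4 called 5 lower (2.03%). With the length and GC correction in that fit 2 were lower, against 190 of all 15960 genes. Grin2a, an NMDA receptor subunit, measured 21.4, 28.8 and 21.6 CPM in RA-PBS animals 1 to 3, less in animal 4, and 14.7, 14.1 and 11.1 CPM in O2-IC100, without overlap (-0.73 ± 0.199, adjusted p = 0.244, and 0.0368 without animal 4, the lowest of the room air retinas). Of 22 GABA and glycine receptor genes, 21 were negative against room air with a median of -0.17, and 0 were called by edgeR or DESeq2. Without RA-PBS animal 4, 2 were called lower (Gabrg3 and Glra1, against 2.03% of all genes), and 7 of 22 were positive. With the length and GC correction in that fit 1 of them (Gabrg3) was called, against 190 of all 15960 genes called lower. In O2-PBS against RA-PBS, 13 of 22 were called lower (1.84% of all genes) with a median of -0.64. In O2-IC100 against O2-PBS 3 were called higher (1.01%) with a median of 0.41. Gabrb1, a GABA-A subunit, measured 18.5 to 23.2 CPM in RA-PBS, 14.3 to 17.0 CPM in O2-IC100 and 8.71 to 12.7 CPM in O2-PBS, with no overlap, and its difference from room air was -0.39 ± 0.132 (adjusted p = 0.346).

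Among 12 tested neuropeptides 0 were called in the 7 libraries by edgeR, while DESeq2 called 2 higher (0.920% of all genes) and 1 lower (1.11%). With RA-PBS animal 4 left out, 3 were higher (Crh, Adcyap1 and Tac1, against 1.38% of all genes) and 1 lower (Cck, 2.03%). With the length and GC correction in that fit 2 and 0 were called, against 195 and 190 of all 15960 genes. Crh, corticotropin-releasing hormone, which some amacrine cells make, measured 0.560, 0.484, 1.71 and 1.04 CPM in RA-PBS, 4.56, 3.26 and 5.75 CPM in O2-IC100 and 0.518 to 1.41 CPM in O2-PBS. It was above both other groups in every O2-IC100 retina. Its log2 fold change was 2.24 ± 0.433 against RA-PBS (adjusted p = 0.148 by edgeR, and 0.0478 without animal 4) and 2.24 ± 0.299 against O2-PBS (adjusted p = 0.000313). Adcyap1, the peptide PACAP, measured 2.39 to 3.99 CPM in RA-PBS, 4.86 to 5.57 CPM in O2-IC100 and 1.60 to 2.07 CPM in O2-PBS, also highest in O2-IC100 (against RA-PBS 0.72 ± 0.249, adjusted p = 0.351, and against O2-PBS 1.53 ± 0.197, adjusted p = 0.000252).

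Of 15 reactive Müller glia and astrocyte genes tested, 1 was called higher (Fgf2, against 0.0858% of all genes) and the median was 0.52. Without RA-PBS animal 4, 2 were called higher (Fgf2 and Nes, against 1.38%). Nes, the intermediate filament nestin, measured 9.79 to 13.5 CPM in RA-PBS, 16.1 to 19.2 CPM in O2-IC100 and 34.2 to 61.7 CPM in O2-PBS, with no overlap among the groups. Its difference from room air was 0.66 ± 0.150 (adjusted p = 0.190 by edgeR, and 0.0580 without animal 4), and from O2-PBS -1.30 ± 0.238 (adjusted p = 0.0108). In O2-IC100 against O2-PBS 11 of 17 genes of the list were called lower (3.82% of all genes), with a median of -1.15.

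Cell cycle genes had a median of 0.41 over 15 tested, with 0 called in the 7 libraries by edgeR. DESeq2 called 3 higher (0.920% of all genes), and 1 was higher without RA-PBS animal 4 (1.38%). Mki67, the proliferation marker Ki-67, measured 0.249, 0.269, 2.69 and 1.39 CPM in RA-PBS and 4.38, 6.08 and 7.39 CPM in O2-IC100, all above room air. Its log2 fold change was 2.37 ± 0.646 (adjusted p = 0.251 by edgeR). O2-PBS stood higher still, at 8.54 to 12.0 CPM (O2-IC100 against O2-PBS -0.81 ± 0.174, adjusted p = 0.00476). Complement genes, which share C1q with the microglia list, had a median of 0.55 over 15 tested, with 0 called in the 7 libraries by edgeR. DESeq2 called 4 higher (0.920% of all genes), and 4 were higher without RA-PBS animal 4 (1.38%).

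In 5 other lists 0 genes were called in the 7 libraries by edgeR. DESeq2 called 0, 0, 0, 1 and 1 lower (1.11% of all genes). Their medians were -0.02 for cholesterol synthesis (18 genes), -0.18 for the circadian clock (16), -0.11 for metallothioneins and NRF2 targets (10), -0.20 for neuron adhesion and axon guidance (38) and -0.02 for ganglion cells (14). With RA-PBS animal 4 left out, 4 neuron adhesion genes (Slit1, L1cam, Cntnap5a and Nrxn3), the clock gene Per2 and the ganglion cell gene Nefh were called lower, against 2.03% of all genes. With the length and GC correction in that fit the counts of these lists were 3, 0 and 1, against 190 of all 15960 genes.

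Photoreceptor genes were tested as well. The 16 rod genes had a median of 0.03 and the 10 cone genes 0.17, with 0 called in either list by edgeR or DESeq2. Rod genes summed to 51730 to 59980 CPM in RA-PBS and 54670 to 59480 CPM in O2-IC100. Bipolar, amacrine and horizontal cell lists had medians of -0.28, -0.31 and -0.38, with 0 called in the 7 libraries by edgeR. DESeq2 called 2, 1 and 0 lower (1.11% of all genes). Without animal 4, 2, 1 and 1 were called lower, against 2.03% of all genes. With the length and GC correction in that fit 1, 1 and 0 were lower, against 190 of all 15960 genes. Prox1, a transcription factor of horizontal and AII amacrine cells, measured 263.5, 293.2, 253.7 and 177.6 CPM in RA-PBS and 164.8, 177.4 and 163.6 CPM in O2-IC100, so that animal 4 stood close to the O2-IC100 range. Without animal 4 and with the length and GC correction, its log2 fold change was -0.53, under the fold limit.

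Among the fits that left out 1 library, the one without RA-PBS animal 4 called the most genes, and using the lens genes as a covariate with all 7 libraries called more still (645 higher and 299 lower). The genes called without animal 4 differed in transcript length, with a median of 1316 bases in the 223 higher, 2792 in the 328 lower and 1578 in all tested genes. A correction for length and GC content in that fit left 182 of 222 higher and 172 of 327 lower genes called. Of the 18 genes of the 7 libraries, 17 stayed called in it, all but Kif5a. The fits with a covariate or the length and GC correction give only how many genes were called. What part the optic nerve and lens RNA, the Y-linked genes or transcript length had in these differences was not tested.

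Genes of other tissues were measured as a check. All 23 tested lens genes had negative differences from RA-PBS, with a median of -8.62. In edgeR 0 passed, while DESeq2 called 23 lower (1.11% of all genes). Pigment epithelium genes summed to 148.6 to 432.6 CPM in RA-PBS and 209.2 to 215.0 CPM in O2-IC100. Of 10 tested (median -0.58), 0 were called by edgeR and 2 lower by DESeq2 (1.11% of all genes). Oligodendrocyte genes had a median of -4.91 over 10 tested, and 0.10 without RA-PBS animal 4. Corneal (1 tested), skeletal muscle (4), red blood cell (5) and Y-linked (4) lists had medians of 0.47, -0.35, -0.37 and 0.75, and 0 members were called by edgeR or DESeq2 in these lists and in the oligodendrocyte list. DESeq2 gave no adjusted p to the oligodendrocyte genes Mbp and Sox10, so it could not call them. Corneal genes summed to at most 3.87 CPM and lymphocyte and neutrophil genes to at most 4.11 CPM in the 7 libraries.

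With O2-IC100 animal 10 added, no gene passed in edgeR. It called 0 of 16004 genes (smallest adjusted p 0.659, 792 genes at an unadjusted p under 0.05), and DESeq2 called 52 higher and 6 lower. Esm1 stood at 0.270 CPM and Apln at 3.24 CPM in that library, against at least 2.66 and 29.1 CPM in the other 3 O2-IC100 retinas, and Mpeg1 at 50.5 CPM. The scaling between libraries raised the CPM of animal 10, where lens genes, at 61.0% of counts, summed to 2014000 CPM. Its rod genes took 0.461% of counts and summed to 15210 CPM. Levels in animal 10 are therefore not comparable with those of the other 3. Esm1 no longer passed the filter on low counts, 15 other genes of the 18 kept their direction, and Gprc5b and Mypn turned to 2.13 and 2.14.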

How the data were processed

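RNA of 12 mouse retinas (C57BL/6J, P18) was sequenced after poly(A) selection as 150 bp read pairs. The authors pseudoaligned the reads with Kallisto to GRCm39 and summed transcripts per gene with tximport, and the deposited table holds expected counts of 36131 genes, 35374 with a symbol, that are not scaled to library size. Total counts were 14907143 to 24438082, so 3 counts were 1.23e-05 to 2.01e-05% of a library. Counts were rounded, filtered with filterByExpr, scaled by TMM and compared by edgeR 4.0.16's two-sided quasi-likelihood test (R 4.3.3), fitting only the 2 groups compared. SE is the log2 fold change over the root of the F statistic. CPM are scaled by TMM over all libraries, which raised those of animal 10. Thresholds were the study's, which applied them to DESeq2 results. Genes named were 4 markers, the largest called changes, called or smallest-p members of each list, members called without RA-PBS animal 4, and the study's qRT-PCR genes. Some values were chosen after being seen (Adcyap1, P2ry12, Lyz2, Fcgr3 and B2m among them). The members and lists were chosen with earlier results of these data known. Alternatives were DESeq2 1.42.0, limma 3.58.1 voom, other filters, scalings, covariates, thresholds and libraries. Lens, pigment epithelium, corneal, muscle, blood, lymphocyte and oligodendrocyte lists checked for other tissue. The procedure was run on simulated counts with the same gene means in every library, apart from genes changed on purpose. Those counts held no outlying library, so the run does not cover that feature of these data. Length and GC content came from the GRCm38 transcripts by gene identifier, and sequences from RefSeq (GRCm38.p6).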

Additional observations from a re-analysis of the deposited data

Results flagged for a closer look

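In groups of 4 libraries, 110 sets of values (the 18 called genes, the gene lists and library shares in RA-PBS and O2-PBS) were examined for 1 library far from the other 3 (gap over range past Dixon's critical value), and 11 stood out. Chance alone flags about 1 in 20 groups. In RA-PBS, oligodendrocyte genes summed to 6470 normalized CPM in animal 4 against 66.5 to 70.0 in the others, matrix genes to 1986 CPM in animal 3 against 1128 to 1223, homeostatic Müller glia genes to 6753 CPM in animal 1 against 5281 to 5402, and angiogenic ligands to 315.5 CPM in animal 2 against 359.1 to 365.8. In O2-PBS, Fosl2 was at 37.2 CPM in animal 5 against 19.6 to 22.4, Crym at 140.5 CPM in animal 7 against 102.0 to 107.6, and neuron adhesion genes summed to 2320 CPM in animal 5 against 2098 to 2119. O2-PBS animal 6 had the most corneal genes (30.0 CPM against 1.90 to 2.34), skeletal muscle genes (56.1 CPM against 14.3 to 15.5) and lens genes (0.0171% of counts against 0.00388 to 0.00501%). Y-linked genes summed to 255.1 CPM in O2-PBS animal 8 against 8.67 to 10.9 in the other 3. O2-IC100 animal 10, which the comparisons do not use, had 61.0% of its counts in lens genes, while RA-PBS retinas had at most 4.69%.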

How the results depend on the processing

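The counts of genes higher and lower in O2-IC100 than in RA-PBS (14 and 4) depended on the libraries more than on the scaling, and the cause was not tested. They stayed within 1.5 times with DESeq2's size factors in edgeR, a minimum mean of 1 CPM, limma voom, no fold limit and library sizes without lens genes. They became 54 and 31 with no filter on low counts, 150 and 181 by DESeq2, 645 and 299 with the lens genes as a covariate, 257 and 388 with the Y-linked genes as a covariate, 8 and 1 at an adjusted p under 0.05 and a fold change of at least 2, 9 and 2 with empirical Bayes that was not robust, and 20 and 7 with a correction for length and GC content. One fit of 11 libraries in 3 groups gave 158 and 103, and one fit of 12 gave 0 and 0. Leaving out 1 library in turn gave 0 to 223 and 0 to 328, where 28 and 51 came without RA-PBS animal 1, 12 and 3 without animal 2, 40 and 12 without animal 3, 223 and 328 without animal 4, and 0 and 0 without any 1 O2-IC100 library, when adjusted p-values of the 18 genes were 0.101 to 0.617. DESeq2 in those last fits gave 73 and 99, 41 and 66, and 37 and 56 without animals 9, 11 and 12. Adding animal 10 gave 0 and 0 by edgeR and 52 and 6 by DESeq2. Chosen after seeing the data were the DESeq2 fits without 1 O2-IC100 library and those without RA-PBS animal 4, which gave 195 and 190 with the length and GC correction, 289 and 444 by DESeq2, 1323 and 652 with the lens covariate, 611 and 848 without animal 1 as well, and 0 and 0 with animal 10 added.

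Among genes, Gprc5b turned to 2.13 with animal 10 (2.19 by DESeq2, 2.13 in one fit of 12 libraries, 2.15 without RA-PBS animal 4), Mypn to 2.14 (2.20, 2.14 and 2.10 in the same fits) and Prox1 to 0.51 (0.54, 0.51 and 0.38). Pycard ran from -0.20 without O2-IC100 animal 12 (-0.21 by DESeq2) to 0.58 without animal 11, and Il18 to -0.15 with the lens covariate, -0.019 with the length and GC correction, and -0.103 and -0.021 in those fits without RA-PBS animal 4. None of these values passed the thresholds in edgeR, and DESeq2 gave no adjusted p to Gprc5b, Mypn and Prox1 with animal 10.

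The 570 and 297 genes of O2-PBS against RA-PBS became 362 to 661 and 141 to 427 with 1 library left out, and the 165 and 624 of O2-IC100 against O2-PBS 143 to 237 and 457 to 629. No paired analysis was possible because the animals are numbered 1 to 12 and no number is shared between groups. Precision is limited by 3 O2-IC100 animals and, for genes under about 1 CPM, by few reads.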
